A study of Mus musculus with 8 samples.

Results

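Interferon-stimulated genes are the transcripts that a cell raises when interferon binds its surface receptors, and 43 of them were followed here in activated mouse CD4 T cells with and without Bcl6. The 43 are a list of gene symbols drawn up with earlier results of these data known, and a gene took its value from the brightest probe set that names it and no other gene. Of the 43 genes, 38 had such a probe set, out of 19938 genes in all. Isg15, Gbp2, Gbp6 and Igtp were named only on probe sets shared with other genes, Ifi44 was not listed in the probe annotation used, and these 5 have no value here.

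The cells were naive CD4 T cells, from wild-type mice (WT, 4 arrays) or from mice with a T cell-specific conditional Bcl6-/- genotype (KO, 4 arrays). The titles of all 8 samples also carry the label Tfh, for follicular helper T cells. After sorting, both genotypes were stimulated through CD3 and CD28 over 24 hours and received IL6 and IL21. They were held under antibodies against IL-4, TGFb and IFNg, so the cultures behind all 8 arrays contained antibody against interferon gamma. How far it blocked the secreted cytokine was not measured. The Cre line, the age and strain of the mice and whether arrays stand for separate animals are not in the labels, so the replicate spread behind every p-value may be partly technical. Values are Affymetrix signals on the log2 scale, and differences are KO minus WT.

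In the textbook pathway, type I interferon engages the Ifnar1 and Ifnar2 receptor chains and brings Stat2 and Irf9 to the interferon-stimulated response element (ISRE) in promoters. Interferon gamma acts through Ifngr1 and Ifngr2 and the gamma-activated site (GAS) in promoters, and induces Irf1 and many GTPases. Bcl6 is a transcriptional repressor whose known DNA site resembles the GAS.

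The arrays carried T cell RNA, and 1 KO array stood apart. On at least 4 arrays, all 9 measured T cell identity markers, Cd3e and Cd4 among them, exceeded the array's 40th percentile, whereas 2 of 11 B cell and 2 of 17 myeloid and dendritic cell markers did. KO replicate 1 deviated from its group by a median of 0.115 over 11998 genes above that percentile, against 0.035 to 0.075 on the other 7 arrays, and the array most like it was WT replicate 3. Bcl6 itself read 8.61, 8.91, 8.78 and 8.79 in WT replicates 1 to 4 and 9.08, 9.15, 9.18 and 9.19 in KO replicates 1 to 4. The groups did not overlap and the KO-labelled arrays were the higher ones (limma adjusted p = 0.0595, and 0.014 to 0.216 over the alternatives). Without the position of the probe set in the gene, this reading is no check of the genotype labels, and KO stands below for arrays so labelled.

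The interferon-stimulated genes did not move as a block. Of the 38, 2 rose in KO, none fell and 36 did not pass the threshold of 0.05 on the limma p adjusted over all 19938 genes. Over all genes 0.186% rose and 0.291% passed in either direction. Zbp1, a cytosolic sensor of Z-form nucleic acid, rose 1.26-fold, and Iigp1, an immunity-related GTPase that attacks the vacuoles of intracellular parasites, rose 1.45-fold. The median difference over the 38 genes was 0.0125, beside -0.0075 over all genes, and 21 were positive and 17 negative. At an unadjusted limma p under 0.05 there were 5 higher and 4 lower, 9 of 38 against 10.5% of all genes. These are RNA averages over whole cultures, in which fewer cells of a kind and less RNA per cell cannot be told apart.

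**Figure D1:**
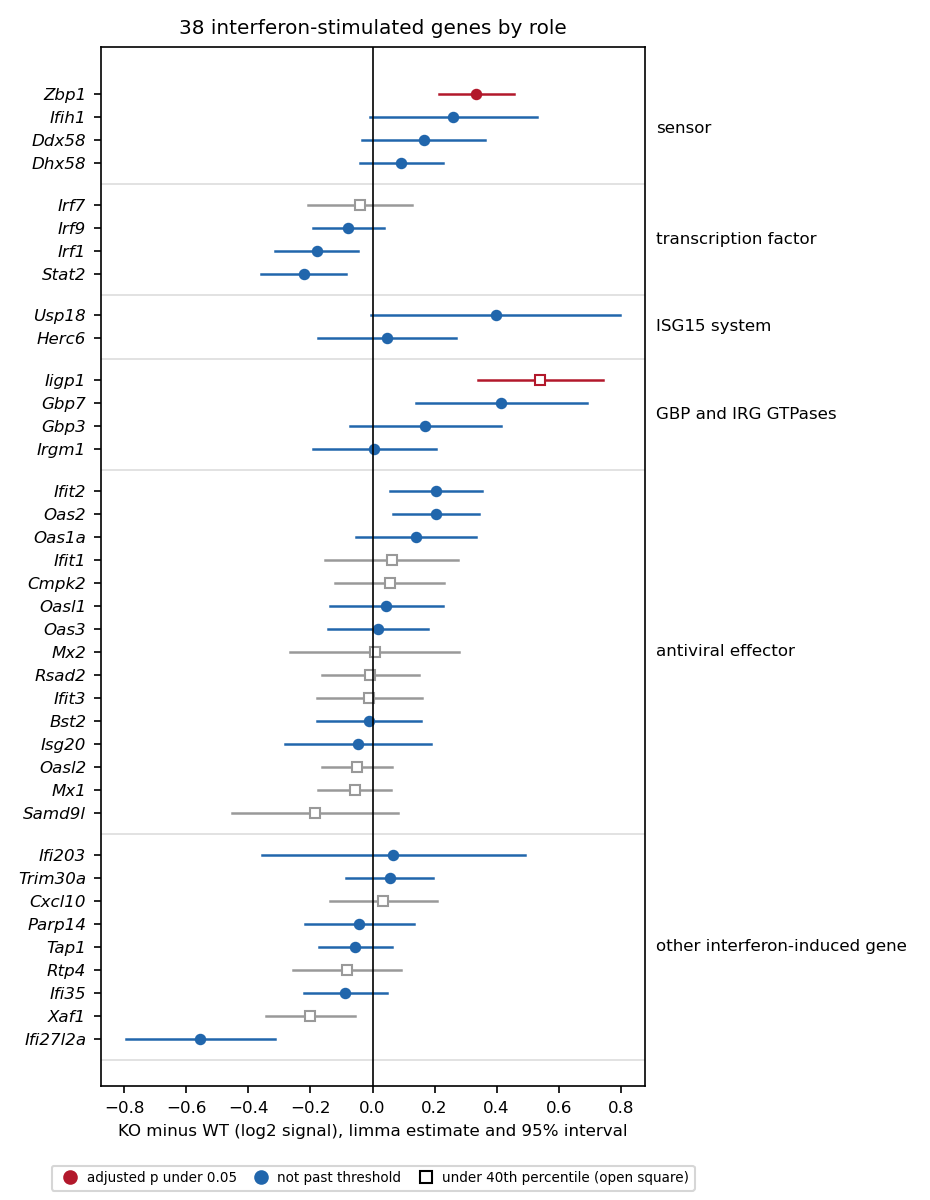
Difference between 4 KO and 4 WT arrays for the 38 genes with a value, by role; the x axis is KO minus WT in log2 signal, points are limma estimates and lines 95% intervals. Zbp1 and Iigp1 alone pass the threshold, the 4 sensors and 4 GTPases lie at or right of 0, and the 4 transcription factors lie left of it.

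The groups did not overlap for 7 of the 38 genes, 3 higher in KO (Zbp1, Iigp1 and Oas2) and 4 lower (Ifi27l2a, Stat2, Irf1 and Xaf1). Over all genes 7.35% did not overlap, 2.49% higher and 4.86% lower in KO. Among genes above the 40th percentile the share was 10.7%, with 7.62% lower. Of the 38 genes, 25 lay above that percentile on at least 4 arrays and 13 did not: Cmpk2, Cxcl10, Ifit1, Ifit3, Iigp1, Irf7, Mx1, Mx2, Oasl2, Rsad2, Rtp4, Samd9l and Xaf1. The 40th percentile lay between 6.89 and 7.14 on the 8 arrays.

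**Figure D2:**
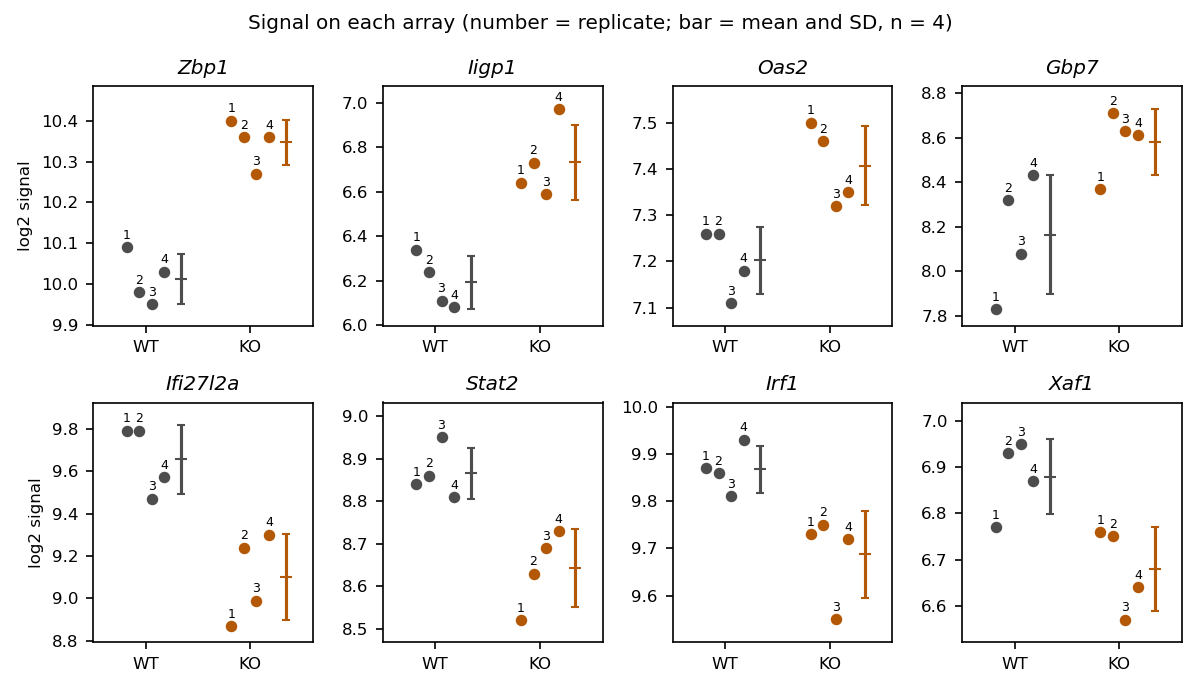
Log2 signal of 8 genes on each of the 4 WT and 4 KO arrays, numbered by replicate, with the group mean and SD beside the points; each panel has its own y axis. In all panels but Gbp7 the 2 groups do not overlap, and in Xaf1 the gap between them is 0.01.

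Cores of the 2 response elements were found in the promoters of some of these genes. The RefSeq promoter table (GRCm38.p6) held 32 of the 43 genes, and the 250 bases before the first listed start were searched on both strands for an ISRE core (GAAA, any 2 bases, GAAA) and a GAS core (TTC, any 3 bases, GAA). The ISRE core was found in 15 of 32 genes, against 3.04% of 27025 promoters, and the GAS core in 7 of 32, against 7.18%. Stat2 and Irf1 are shown as the transcription factors whose groups did not overlap, Gbp7 as the GTPase with both kinds of match, and Isg15 because its 3 ISRE matches overlap one another. Capitals mark the matches, and no ISRE match overlaps a GAS match in these 4.
Stat2 (chr10:128270248-128270497, plus strand): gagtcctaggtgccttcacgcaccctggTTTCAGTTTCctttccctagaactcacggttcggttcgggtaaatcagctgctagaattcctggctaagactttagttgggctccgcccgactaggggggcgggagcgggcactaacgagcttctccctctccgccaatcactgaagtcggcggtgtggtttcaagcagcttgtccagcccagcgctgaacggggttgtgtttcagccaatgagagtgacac
Irf1 (chr11:53769764-53770013, plus strand): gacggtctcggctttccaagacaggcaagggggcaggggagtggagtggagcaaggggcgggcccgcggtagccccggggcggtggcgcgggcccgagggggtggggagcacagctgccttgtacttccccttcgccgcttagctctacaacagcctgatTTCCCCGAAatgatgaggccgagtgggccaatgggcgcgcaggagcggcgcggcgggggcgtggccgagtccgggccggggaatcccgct
Gbp7 (chr3:142530086-142530335, plus strand): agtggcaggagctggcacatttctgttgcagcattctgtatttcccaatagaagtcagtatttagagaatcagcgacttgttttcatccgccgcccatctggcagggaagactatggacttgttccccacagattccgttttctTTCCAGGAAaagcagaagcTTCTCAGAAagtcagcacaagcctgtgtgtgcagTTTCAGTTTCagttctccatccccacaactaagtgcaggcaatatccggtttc
Isg15 (chr4:156200819-156201068, minus strand): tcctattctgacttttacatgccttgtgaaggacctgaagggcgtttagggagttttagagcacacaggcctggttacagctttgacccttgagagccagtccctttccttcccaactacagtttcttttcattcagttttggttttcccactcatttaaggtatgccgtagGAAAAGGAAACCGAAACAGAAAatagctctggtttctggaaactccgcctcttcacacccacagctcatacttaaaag

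Stat2 carried its ISRE match 222 to 213 bases before the start, and Irf1 its GAS match 90 to 82 bases before. Gbp7 had GAS matches at 106 to 98 and 87 to 79 and an ISRE match at 53 to 44, and the Isg15 matches together ran from 78 to 57 bases before the start. Xaf1, Irf7 and Irf9 had neither core in this window. Among genes with both a promoter and a value, the 12 with an ISRE core had a median difference of 0.03 (from -0.22 in Stat2 to 0.42 in Gbp7) and the 16 without one -0.04 (from -0.20 in Xaf1 to 0.26 in Ifih1). For the GAS core, the 6 genes with it had a median of 0.06 (from -0.18 to 0.42). The 22 without it had a median of 0.01 (from -0.22 to 0.26). In both splits the ranges overlapped widely, and both sets held genes of either sign.

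All 4 nucleic acid sensors among the 38 genes had positive differences, and Zbp1 alone passed. Sensor genes outside the 43 went both ways, and none passed. Cgas differed by -0.09, Aim2 by -0.11 and Tlr9 by -0.06. Tlr3 and Tlr7, both under the 40th percentile, differed by 0.06 and 0.215. Zbp1 read 10.09, 9.98, 9.95 and 10.03 in WT replicates 1 to 4 and 10.4, 10.36, 10.27 and 10.36 in KO replicates 1 to 4. Every KO array lay above every WT array. The difference was 0.34 ± 0.0551 (SE, n = 4 and 4, limma adjusted p = 0.0424), and the exact permutation p of 0.0286 is the lowest possible for 4 against 4 arrays. Any gene whose groups do not overlap, as in 7.35% of all genes, takes this p. Here and below it restates the missing overlap, by which genes were chosen, and adds no support. Zbp1 kept its call without KO replicate 1 (limma adjusted p = 0.0236) and lost it when any 1 of the other 7 arrays was left out, at 0.0658 to 0.199, while the difference stayed between 0.31 and 0.36.

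Ifih1, the MDA5 sensor of long double-stranded RNA, depended on single arrays. It read 8.35, 8.30, 8.32 and 8.53 in WT replicates 1 to 4 and 8.25, 8.68, 8.70 and 8.91 in KO replicates 1 to 4. KO replicate 1 was the lowest of all 8 arrays, and the other 3 KO arrays lay above every WT array. The difference of 0.26 (limma adjusted p = 0.489) became 0.39 without KO replicate 1 (limma adjusted p = 0.0394) and 0.17 without KO replicate 4 (0.689); over all alternatives the adjusted p ran from 0.021 to 0.811. Ddx58, which encodes the RIG-I sensor, differed by 0.16 ± 0.0896 (SE, limma adjusted p = 0.586) and Dhx58, the regulatory helicase LGP2, by 0.09 ± 0.0601 (0.686), with overlapping groups in both.

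The 4 transcription factors among the 38 genes all had negative differences, and none passed. Of the 11998 genes above the 40th percentile, where 3 of the 4 lay, 6942 were negative too. Stat2, which acts with Irf9 in type I interferon signalling, read 8.84, 8.86, 8.95 and 8.81 in WT replicates 1 to 4 and 8.52, 8.63, 8.69 and 8.73 in KO replicates 1 to 4, so that all KO arrays were below all WT arrays. Its difference was -0.22 ± 0.0615 (SE, limma adjusted p = 0.197, exact permutation p = 0.0286). Irf1, an activator induced by interferon gamma, read 9.87, 9.86, 9.81 and 9.93 in WT and 9.73, 9.75, 9.55 and 9.72 in KO, again without overlap. It differed by -0.18 ± 0.0603 (SE, limma adjusted p = 0.293). A dimmer probe set of Irf1, the only other probe set among the 38 genes, read 7.02 to 7.32 in WT and 7.06 to 7.36 in KO, with a difference of 0.015, so the 2 probe sets of Irf1 disagreed.

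Irf9, the DNA-binding partner of Stat2, and Irf7, the amplifier of type I interferon production, overlapped between groups. Irf9 read 9.34, 9.45, 9.38 and 9.46 in WT and 9.35, 9.32, 9.36 and 9.29 in KO, a difference of -0.08 with a 95% interval from -0.19 to 0.04 (limma adjusted p = 0.697). Irf7 read 6.71, 6.85, 6.63 and 6.70 in WT and 6.83, 6.52, 6.67 and 6.71 in KO, all under the 40th percentile, with a difference of -0.04 and an interval from -0.21 to 0.13 (limma adjusted p = 0.939). Changes of the size seen in Iigp1 lie outside both intervals.

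The GTPases that coat and break pathogen vacuoles held the 2 largest positive differences of the 38 genes, in Iigp1 and Gbp7. Iigp1 read 6.34, 6.24, 6.11 and 6.08 in WT replicates 1 to 4 and 6.64, 6.73, 6.59 and 6.97 in KO replicates 1 to 4. The groups did not overlap, yet every value lay under the 40th percentile of the arrays, apart from KO replicate 4 at 6.97, where that percentile was 6.89. The difference was 0.54 ± 0.0909 (SE, limma adjusted p = 0.045, exact permutation p = 0.0286), and Iigp1 drops out of any fit limited to genes above the percentile. It kept its call without KO replicate 1 (adjusted p = 0.0225) and lost it at 0.0658 to 0.172 when any 1 of the other 7 arrays was left out.

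Gbp7, a guanylate-binding protein, overlapped between the groups through KO replicate 1. It read 7.83, 8.32, 8.08 and 8.43 in WT replicates 1 to 4 and 8.37, 8.71, 8.63 and 8.61 in KO replicates 1 to 4. The difference was 0.42 ± 0.124 (SE, limma adjusted p = 0.231, exact permutation p = 0.0571). Gbp3, near Gbp7 on chromosome 3, had values from 7.75 to 8.16 in WT and from 7.88 to 8.35 in KO and differed by 0.17 (limma adjusted p = 0.681). Irgm1, a regulator of the immunity-related GTPases, differed by 0.005 with an interval from -0.19 to 0.20 (limma adjusted p = 0.996). Of the 7 listed GTPases, 4 had a value, and 1 of these rose.

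None of the 15 antiviral effectors passed. Oas2, which makes the 2'-5' oligoadenylates that switch on RNase L, was the effector whose groups did not overlap: it read 7.26, 7.26, 7.11 and 7.18 in WT and 7.50, 7.46, 7.32 and 7.35 in KO. The difference was 0.20 ± 0.0623 (SE, limma adjusted p = 0.236, exact permutation p = 0.0286). Ifit2, a tetratricopeptide repeat protein that binds viral RNA, differed by 0.20 ± 0.0671 (limma adjusted p = 0.278), and its groups met at 8.57 in WT replicate 4 and 8.56 in KO replicate 1. The family neighbours of these genes had smaller differences: Oas3 and Oas1a, next to Oas2 on chromosome 5, differed by 0.02 and 0.14, and Ifit3 and Ifit1, next to Ifit2 on chromosome 19, by -0.01 and 0.06.

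Of the 15 effectors, 7 lay above the 40th percentile (Ifit2, Oas1a, Oas2, Oas3, Oasl1, Isg20 and Bst2) and 8 under it. Mx1, a dynamin-like antiviral GTPase, read 5.15 to 5.26 in WT and 5.09 to 5.22 in KO, and Rsad2, which encodes viperin, 5.90 to 6.16 and 5.89 to 6.08. Ifit1 read 6.16 to 6.61 and 6.29 to 6.57, and the interferon-induced chemokine gene Cxcl10, from outside the effectors, read 6.57 to 6.68 and 6.53 to 6.89. All of these values lay under the 40th percentile of the arrays, and the groups overlapped in all 4 genes. Mx2, Cmpk2, Ifit3 and Oasl2 were likewise dim, differing by -0.05 to 0.06. Differences over the 15 effectors ran from -0.18 in Samd9l, a translation-blocking antiviral factor, to 0.20, with a median of 0.0075 and limma adjusted p from 0.236 to 0.996. Bst2, the tetherin that holds budding virions, differed by -0.01 (interval -0.18 to 0.15, limma adjusted p = 0.983), Isg20, an exonuclease, by -0.05 (interval -0.28 to 0.19, 0.948) and Oasl1, a relative of the OAS enzymes, by 0.04 (0.937).

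Within the ISG15 system, Usp18 scattered widely within WT (SD 0.422). Usp18, the protease that removes ISG15 and dampens type I receptor signalling, read 8.08, 8.71, 8.81 and 7.99 in WT replicates 1 to 4 and 8.67, 9.0, 8.61 and 8.90 in KO replicates 1 to 4. WT replicates 1 and 4 were low and WT replicates 2 and 3 lay among the KO arrays. The difference was 0.40 ± 0.181 (SE, limma adjusted p = 0.48), with an interval from -0.0043 to 0.80, and it ran from 0.26 without WT replicate 4 to 0.535 without WT replicate 3. Herc6, the mouse ligase of ISG15, differed by 0.05 (limma adjusted p = 0.946).

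Ifi27l2a, a small interferon-induced membrane protein gene, had the largest difference of the 38 genes in either direction and missed the threshold. It read 9.79, 9.79, 9.47 and 9.57 in WT replicates 1 to 4 and 8.87, 9.24, 8.99 and 9.30 in KO replicates 1 to 4. Every KO array was below every WT array, and KO replicate 1 was the lowest. The difference was -0.555 ± 0.109 (SE, limma adjusted p = 0.0803, exact permutation p = 0.0286). Limited to the 11998 genes above the 40th percentile, of which 1.18% passed, Ifi27l2a passed (limma adjusted p = 0.0471), as it did without KO replicate 1 (0.0473); over all alternatives its adjusted p ran from 0.00816 to 0.299 and its difference from -0.62 to -0.48.

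Xaf1, a pro-apoptotic factor, read 6.77, 6.93, 6.95 and 6.87 in WT and 6.76, 6.75, 6.57 and 6.64 in KO. The groups were separated by 0.01, the rounding step of the deposited values, and the difference was -0.20 ± 0.0648 (SE, limma adjusted p = 0.272). The other 7 genes of this mixed group with a value differed by -0.09 to 0.07. Tap1, the peptide transporter of antigen presentation, differed by -0.055 (interval -0.17 to 0.06, limma adjusted p = 0.825), Trim30a, a tripartite-motif protein, by 0.055 (0.869) and Parp14, a mono-ADP-ribosyltransferase, by -0.04 (0.937). Ifi35 differed by -0.09 (0.718) and Rtp4 by -0.08 (0.825).

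The genes can also be split by the interferon they are best known to answer. The 7 gamma-class genes with a value (Irf1, Gbp3, Gbp7, Iigp1, Irgm1, Tap1 and Cxcl10) had a median difference of 0.035 and 1 rise, in Iigp1. The 31 others had a median of 0.0075 and 1 rise, in Zbp1. The assignment to the 2 classes is a convention, since many of these genes answer both interferons.

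Upstream of these genes, no receptor, kinase or ligand passed. Ifnar1, the signalling chain of the type I receptor, read 9.98, 10.16, 10.02 and 10.03 in WT and 9.83, 9.88, 9.81 and 9.89 in KO. The groups did not overlap, and the difference was -0.195 ± 0.0561 (SE, limma adjusted p = 0.217). Array weights, where 4.7% of all genes passed, were the only alternative of 17 that called it (limma adjusted p = 0.0396). Ifnar2 differed by -0.12 ± 0.0617 (limma adjusted p = 0.579), Ifngr1 by -0.05 (0.934) and Ifngr2 by 0.10 (0.636). None of 9 receptor and kinase genes and none of 15 interferon genes passed. Ifng, the gene of interferon gamma, read 7.76, 8.31, 8.54 and 7.71 in WT and 8.05, 8.31, 7.87 and 8.69 in KO, which overlapped (difference 0.15 ± 0.211, SE, limma adjusted p = 0.903), and Ifnb1 stayed between 5.60 and 5.92 on all 8 arrays (limma adjusted p = 0.546).

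**Figure D3:**
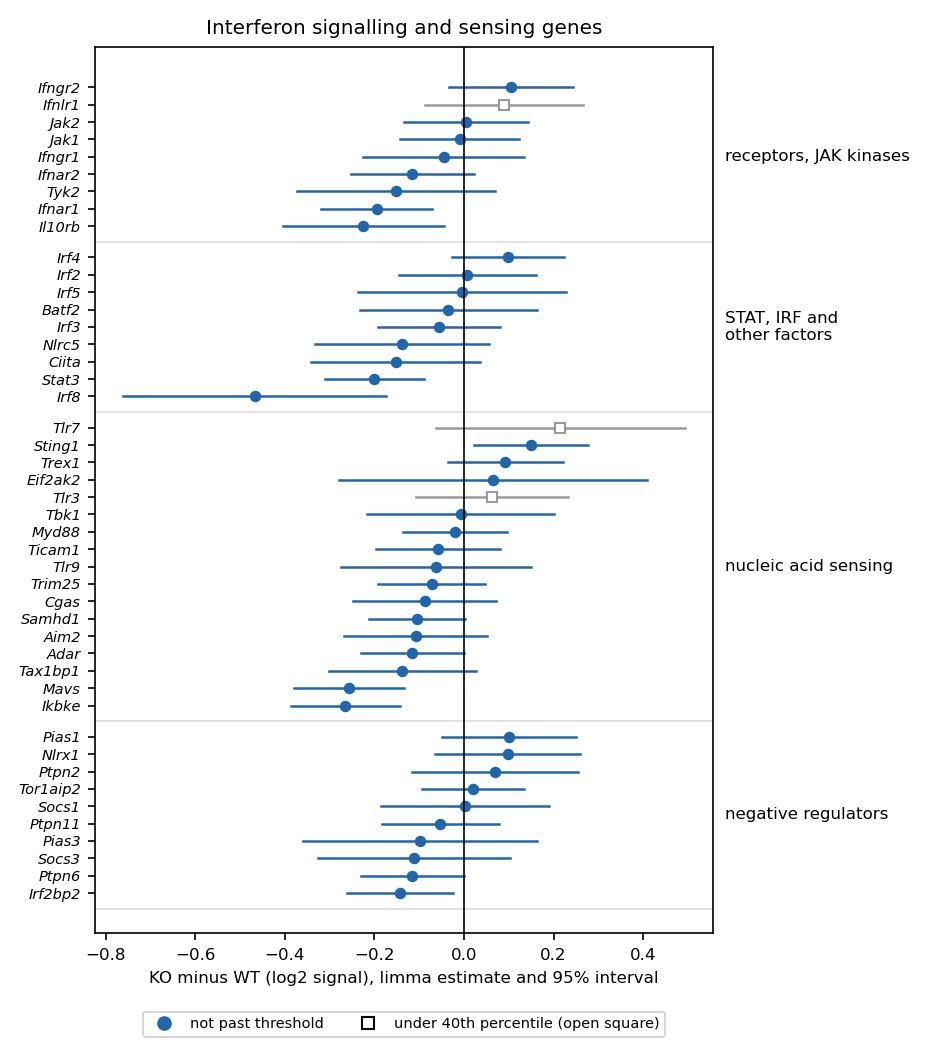
Difference between 4 KO and 4 WT arrays for genes of interferon signalling and nucleic acid sensing outside the 43; the x axis is KO minus WT in log2 signal, points are limma estimates and lines 95% intervals. No gene passes the threshold, and Irf8, Ikbke and Mavs lie farthest to the left.

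None of 9 further STAT, IRF and related factors, 17 genes of nucleic acid sensing or 10 negative regulators passed. Stat3, which carries the signals of the added IL-6 and IL-21, differed by -0.20 ± 0.0494 (SE, limma adjusted p = 0.148). Ikbke, a kinase that activates Irf3 and Irf7, differed by -0.265 ± 0.055 (limma adjusted p = 0.0996) and Mavs, the mitochondrial adaptor of the RIG-I and MDA5 sensors, by -0.26 ± 0.0555 (0.103). In Stat3, Ikbke and Mavs every KO array lay below every WT array, as in 7.62% of all genes above the 40th percentile. Under the alternatives Ikbke passed in 6 of 17, Mavs in 5 and Stat3 in 3. Among these were array weights (limma adjusted p = 0.0118, 0.0123 and 0.0221), where 4.7% of all genes passed. The filter at the 50th percentile was another (0.0302, 0.0331 and 0.0396), where 2.29% of the genes kept passed. Irf2bp2, a corepressor of Irf2, had the smallest p of the negative regulators (-0.14, limma adjusted p = 0.355), and Socs1, a feedback inhibitor of JAK kinases, differed by 0.0025 (0.996).

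A further list of 83 interferon-induced genes outside the 43 had 66 with a value, of which 2 rose and none fell. Over all genes 0.186% rose and 0.105% fell. The groups did not overlap for 8 of the 66, 4 higher and 4 lower in KO, beside 7.35% of all genes. Ifitm3, a membrane protein that blocks viral entry, read 11.45, 11.16, 11.14 and 11.23 in WT replicates 1 to 4 and 11.59, 11.95, 11.92 and 11.96 in KO replicates 1 to 4. It rose by 0.61 ± 0.0976 (SE, limma adjusted p = 0.0379). Gbp4, a guanylate-binding protein like Gbp7, read 9.24, 9.28, 9.37 and 9.50 in WT and 9.64, 9.83, 9.84 and 9.89 in KO and rose by 0.45 ± 0.0756 (limma adjusted p = 0.045). Neither Ifitm3 nor Gbp4 overlapped between the groups, and the median over the 66 genes was -0.025. Ifitm3 kept its call without KO replicate 1 or WT replicate 1 (limma adjusted p = 0.00341 and 0.0368) and Gbp4 without KO replicate 1 or WT replicate 4 (0.00799 and 0.0389); without any 1 of the other 6 arrays both lost it, at up to 0.172 and 0.199.

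Markers of other cell types were set beside these differences, and their part in the results was not tested. The 12 NK and CD8 T cell markers averaged 7.79 to 8.13 on the WT arrays and 7.66 to 7.86 on the KO arrays, and 8 of them lay above the 40th percentile. Of these 12, none passed and 4 (Prf1, Nkg7, Ctsw and Crtam) were lower in KO without overlap, as were 4.86% of all genes and 7.62% of those above the percentile, with Ctsw at the smallest limma adjusted p of 0.124. The list did not move one way: 5 of the 12 were positive, Gzmb among them (0.35, limma adjusted p = 0.555), Cd8a differed by -0.04 and Cd8b1 by 0.03, while the NK receptor genes Ncr1, Klrb1c and Klrk1 lay under the percentile. Markers of plasmacytoid dendritic cells, the main makers of type I interferon in blood, averaged 7.96 to 8.04 in WT and 7.83 to 7.98 in KO over 7 genes, Bst2 of the 38 among them; their defining gene Siglech lay under the percentile, and Lag3, also a gene of activated T cells, had the smallest p (-0.28, limma adjusted p = 0.131). The B cell list averaged 6.13 to 6.26 in WT and 6.05 to 6.35 in KO and the myeloid and dendritic cell list 6.47 to 6.60 and 6.5 to 6.67, with Ms4a1 (-0.13, limma adjusted p = 0.633) and Lyz2 (0.46, 0.241) at their smallest p. T cell identity markers averaged 12.5 to 12.6 in both groups and activation markers likewise, with Zap70 (-0.125, limma adjusted p = 0.462) and Tnfrsf9 (-0.23, 0.489) at the smallest p.

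The calls changed when single arrays were left out. Without KO replicate 1, 3 of the 38 genes rose (Zbp1, Iigp1 and Ifih1) and 1 fell (Ifi27l2a), while 1.78% of all genes passed. Leaving out any 1 of the other 7 arrays ended every call among the 38, while 0.0552% to 0.306% of all genes passed. In these fits the difference stayed between 0.31 and 0.36 for Zbp1 and between 0.46 and 0.59 for Iigp1. Other variance models and filters moved the calls as well. With array weights, which gave KO replicate 1 the lowest weight (0.197), 5 of the 38 rose (Zbp1, Iigp1, Ifih1, Gbp7 and Ifit2) and 3 fell (Ifi27l2a, Stat2 and Xaf1) while 4.7% of all genes passed. With an intensity trend and robust prior 2 rose and 1 fell (1.25% of all genes), and limited to genes above the 50th percentile 1 rose and 1 fell (2.29%).

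**Figure D4:**
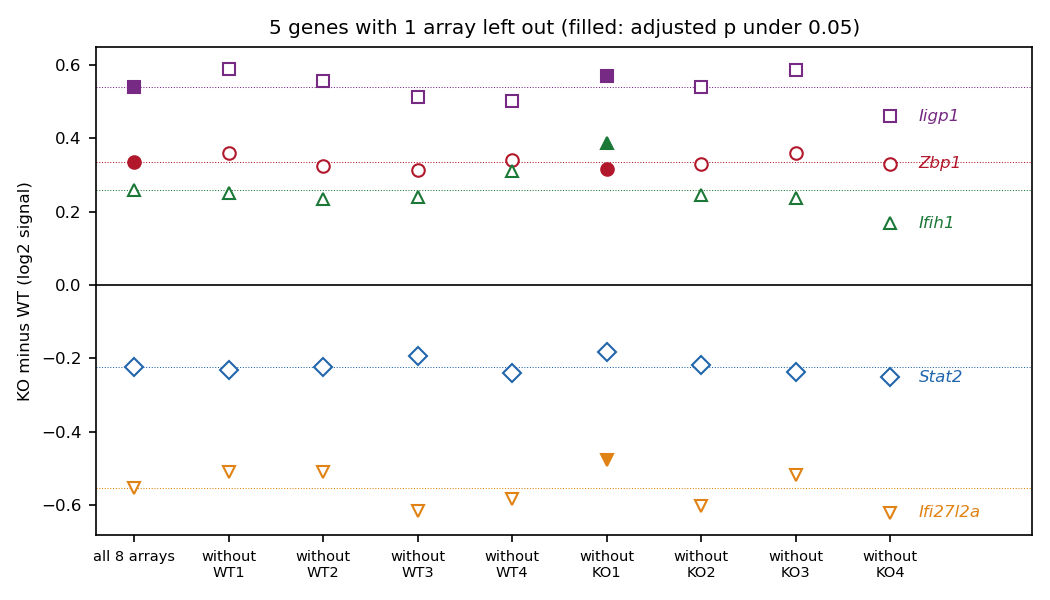
Difference between KO and WT (log2 signal, y axis) for 5 genes over all 8 arrays and with each array left out in turn (x axis); filled symbols pass the limma threshold and dotted lines mark the value over all arrays. The 5 differences keep their sign in all 9 fits, and the calls appear over all arrays and without KO replicate 1 only.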

How the data were processed

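The authors deposited 1 log2 value per probe set and array, rounded to 2 decimals; RMA and Partek made them, per the submitters' processing notes, and versions and genome build are not given in the sources used here. RMA equalizes arrays (medians 7.35 to 7.42 over 35556 probe sets), so they carry no information on RNA amount per cell, and the number of arrays limits the precision. The platform annotation gave 1 symbol to 21789 probe sets, several to 1621 and none to 12146, and 21698 of the first matched the RefSeq gene table (GRCm38.p6), which gave names and gene order only. The probe set with the highest mean stood for a gene, and levels of different genes are not ranked. All 19938 genes entered, without a filter, a two-sided linear model test with moderated variances (limma 3.58.1 under R 4.3.3) and Benjamini-Hochberg adjustment; exact permutation tests used SciPy 1.17.1, and the steps were tested on simulated data.

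Groups came from the sample titles. Members, gene lists and tests were chosen with earlier results of these data known. The genes described in full are those past the threshold or without overlap, and fixed names among them; Isg15 had no value, and Gbp7, Ifih1, Usp18, Ifit2, Mavs, Socs1 and single markers were added after their values were seen. Neighbours are genes with at most 5 protein-coding genes between them. Alternatives were other scaling, filters at the 40th and 50th percentiles, other variance models, mean probe sets, a replicate block and each array left out. Leaving out KO replicate 1 and WT replicate 3 together was added after seeing the data.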

Additional observations from a re-analysis of the deposited data

Results flagged for a closer look

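In 8 of 126 groups of 4 values, a single array was distant from the 3 others by Dixon's gap ratio. By chance about 1 in 20, or 6.3 groups, would be. The groups covered the 38 genes, their mean and a part of the other genes named. Klrk1, Cd8a and Siglech were among the named genes left out. Among the interferon-stimulated genes, Oas1a in KO replicate 2 (7.07, the other KO arrays 7.37 to 7.41), Oas3 in WT replicate 1 (7.61, the others 7.86 to 7.91) and Irf1 in KO replicate 3 (9.55, the others 9.72 to 9.75) were low. The other 3 KO values of Oas1a lay above all WT values, of which 7.26 was the highest. In KO replicate 1, Ifitm3 was low (11.59, the others 11.92 to 11.96), and Ifnb1 (5.83, the others 5.60 to 5.62) and Lag3 (10.55, the others 10.39 to 10.41) were high. Ms4a1, a B cell gene under the 40th percentile, was low in KO replicate 2 (4.88, the others 5.18 to 5.23). Socs1, the JAK inhibitor, was low in WT replicate 1 (10.2, the others 10.48 to 10.53).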

How the results depend on the processing

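Differences held better than calls. The count of all genes past the threshold was 58, and it was 147 with quantile normalization again, 31 centred on the array median, 141 and 229 with filters at the 40th and 50th percentiles, 250 with an intensity trend and 937 with array weights. Of interferon-stimulated genes, 2 rose and 0 fell over the 8 arrays. These counts became 1 and 1 with quantile normalization or either filter, 0 and 0 when centred, 2 and 1 with the trend and 5 and 3 with array weights, where 4.7% of all genes passed. The median over the genes stayed between -0.01 and 0.05 in all alternatives. Zbp1 and Iigp1 kept their sign in every alternative that fitted them; neither filter setting holds Iigp1. Of the 38, 15 changed sign in at least 1 alternative, none with a main difference above 0.07 in size.

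Leaving out 1 array gave 11 to 355 genes in all, with 0 to 3 interferon-stimulated genes higher and 0 to 1 lower. From 7 to 11 of the 38 did not overlap, beside 8.68% to 17% of all genes (17% without KO replicate 1, where the 11 occur). With the 50th percentile filter, 4 of the 22 interferon-stimulated genes it kept did not overlap, beside 12.3% of its 9995 genes. Without KO replicate 1 and WT replicate 3 together there were 148 genes, 0 higher and 1 lower, and 11 not overlapping (20.4% of all genes). The replicate block gave 20 genes and 0 higher, with Zbp1 at a limma adjusted p of 0.119 and Iigp1 at 0.154. Whether equal numbers mark paired samples could not be decided. Same-numbered arrays correlated at 0.0117, 0.145, -0.174 and 0.31 in their deviations from the group means, and other pairs at -0.423 to 0.462. Deviations from a mean of 4 arrays depend on one another, so these values neither show nor exclude a pairing. Centring raised the share of higher calls from 63.8% to 71%, while the filters lowered it to 51.8% and 39.7%.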

Other observations

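The 25 interferon-stimulated genes above the 40th percentile varied between arrays of the same genotype by a median SD of 0.12, against 0.0933 over the 11998 genes above it. Ifi203, a DNA-binding protein of the PYHIN family, varied most of the 38 genes: it read 7.84, 8.39, 8.01 and 8.35 in WT replicates 1 to 4 and 7.79, 8.57, 7.94 and 8.56 in KO replicates 1 to 4. Replicates 2 and 4 were high and replicates 1 and 3 low in both genotypes, and the difference between the genotypes was 0.07 ± 0.191 (SE, limma adjusted p = 0.963). Usp18 came next, with an SD of 0.422 in WT and 0.185 in KO.

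The low arrays of each group were the same for many of these genes. Ties left out, WT replicate 1 was the lowest WT array for 12 of the 25 genes and WT replicate 3 for 8, and WT replicates 2 and 4 for 2 each. Over all 11998 genes, WT replicates 1, 3, 2 and 4 were lowest for 26.2%, 22.6%, 16.8% and 28%. KO replicate 1 was the lowest KO array for 15 of the 25, but was so for 53.5% of all genes too. The mean over the 38 genes ran from 7.87 to 8.01 on the WT arrays and from 7.93 to 8.03 on the KO arrays, so the groups overlapped.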
